A study of Neurospora crassa with 6 samples.

Results

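Named glycoside hydrolase genes of the filamentous fungus Neurospora crassa were compared in a pair of knockout strains, one without cac-1 and one without both cac-1 and suz-12. Members were all rows of the count table whose name has the form of a glycoside hydrolase family and number (gh10-4 is the gene numbered 4 of family 10), plus cbh-1, a family 7 cellobiohydrolase written under its older name. This gave 80 of the 9757 genes. RNA was sequenced from mycelium, the network of growing hyphae, after overnight growth in Vogel's minimal medium with 1.5% sucrose, in 3 libraries of each strain. Both strains lack cac-1, a subunit of the histone chaperone chromatin assembly factor, and the double knockout also lacks suz-12, a subunit of the Polycomb complex that methylates histone H3 in facultative heterochromatin. By their labels the strains differ in suz-12, so the comparison was made to read its loss in strains without cac-1. The strains also differed at a mating-type gene, given below, and effects of such other differences cannot be told apart from those of suz-12. No wild type entered the comparison.

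Glycoside hydrolases cut the bonds between sugars and are grouped into numbered families by sequence. Neurospora grows on dead plant matter and secretes cellulases, xylanases and pectinases when plant polymers are its food. On a preferred sugar such as sucrose many of these genes are kept low by carbon catabolite repression and by the lack of an inducer. Other families act on the fungus itself, remodelling the chitin, glucan and mannan of its wall, digesting starch and glycogen, or trimming the sugar chains of secreted proteins. The members held 27 genes of plant-wall families (gh5, gh6, gh7 with cbh-1, gh10, gh11, gh45 and gh61), 18 genes of fungal-wall families (gh16, gh18, gh76 and gh81) and 35 genes of other families.

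Libraries held 7989915 to 28327383 counts, and single-knockout replicate 1 was the shallowest. No count fell on cac-1 in any library. The locus taken as suz-12 from general knowledge (NCU05460, a name the table does not give) had 74, 207 and 197 counts in the single and 54, 70 and 55 in the double knockout, so reads remained there. With depth taken into account, the locus was 3.14-fold lower in the double knockout (log2 fold change -1.65, edgeR adjusted p = 8.20e-05). The mating-type gene matA-1 had 0 counts in every single-knockout library and 1000 to 1387 in the double knockout, so the strains also differed at that locus. Library numbers in the labels run consecutively within each strain, so a preparation batch, if there was one, cannot be told apart from the strain. Nothing in the labels says that replicates came from separate cultures, and p-values then measure only the spread between these libraries. Of 7 genes listed as markers of conidia and aerial growth, con-6 rose, con-8 and ccg-9 fell, and con-10, con-13, eas and fl did not pass the test. The summed level of the 7 ran from 659 to 966 CPM (counts scaled to a common library total with TMM factors) in the single and from 373 to 463 CPM in the double knockout. Most of that sum was ccg-9, at 463 to 692 CPM in the single and 217 to 271 CPM in the double knockout. Of 7 names listed for sexual structures the table gives 6, of which poi-2 and sub-1 fell and 0 rose. These 6 summed to 1530 to 3091 CPM and 1059 to 1803 CPM. Most of that sum was asd-1, which did not pass the test, at 1402 to 2883 CPM and 952 to 1649 CPM. Of all genes tested, 16.1% rose and 11.9% fell. No listed marker was at 0 in all libraries. Their part in the results below was not tested, and in bulk RNA fewer cells of a type cannot be told apart from less RNA per cell.

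In the double knockout 4 of 6 xylanase genes were higher, as were the endoglucanase gene gh45-1, gh7-1 and gh7-4 of family 7 and gh61-5 and gh61-11 of family 61. The endoglucanase gene gh5-1, gh61-2 and both polygalacturonase genes were lower. Of the 80 members, 78 passed the filter on low counts, and 32 of these were called at an adjusted p under 0.05 (edgeR quasi-likelihood test, Benjamini-Hochberg over 9148 genes). Over all genes tested, 28.1% were called. Among the members 20 were higher (25.6% of those tested) and 12 lower (15.4%), against 16.1% and 11.9% of all genes tested. With a change of 2-fold or more, 10 members were higher and 6 lower, where 8.46% and 2.89% of all genes were called. The strains' values were fully separated for 22 of the 78 members tested in the higher and 19 in the lower direction, beside 22.4% and 19.8% of all genes tested. These counts include the chitinase gene gh18-1, which passed the filter only through the double-knockout libraries, where it is high. Without it 19 members were higher, 9 of them by 2-fold or more, and 21 were separated upward. The split depended on the scaling. Scaled to library totals, which moves the median of all genes to -0.20 on the log2 scale, 14 members were higher and 21 lower, beside 11.3% and 20.3% of all genes. The median log2 fold change of the members tested was 0.046, beside -0.000895 for all genes.

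**Figure D1:**
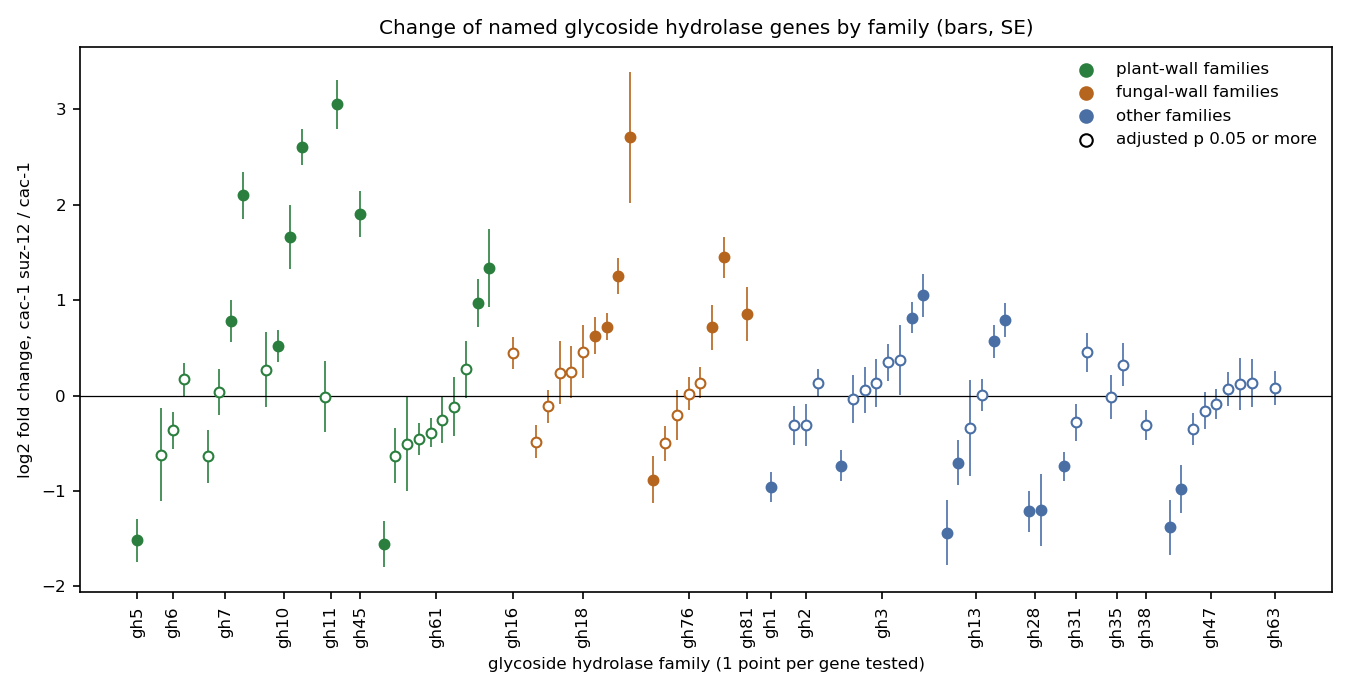
Log2 fold change (double over single knockout, bars show the SE) of each of the 78 members tested, arranged by family and coloured by class, with filled points for genes called at an adjusted p under 0.05. The filled points include gh18-1, which passed the filter only through the double-knockout libraries. The 4 largest rises of the plant-wall class are those of gh11-2, gh10-4, gh7-4 and gh45-1, from 3.05 down to 1.90, and gh5-1 and gh61-2 stand lowest at -1.51 and -1.55.

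Levels compared between genes are given as CPM per kb of counted length. Most members were expressed at low levels, with a median of 4.93 over the 6 libraries, and 23 of 80 exceeded the median of all genes, 11.8. The plant-wall class reached that level in 6 genes, the fungal-wall class in 6 and the other families in 11. The range was wide. The polygalacturonase gene gh28-1 (NCU02369), whose product cuts pectin, stood at 2968 and ranked 81 of the 9757 genes. This pectinase gene was thus not low on sucrose. Lowest was gh7-3 at 0.140. Next to gh28-1 came gh13-1 at 291, gh76-2 at 207, gh61-9 at 190 and gh18-5 at 136. Together the 80 members took 0.744% to 0.896% of the counts in the single and 0.380% to 0.576% in the double knockout. Without gh28-1 these ranges were 0.285% to 0.319% and 0.259% to 0.323%, and they overlapped.

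**Figure D2:**
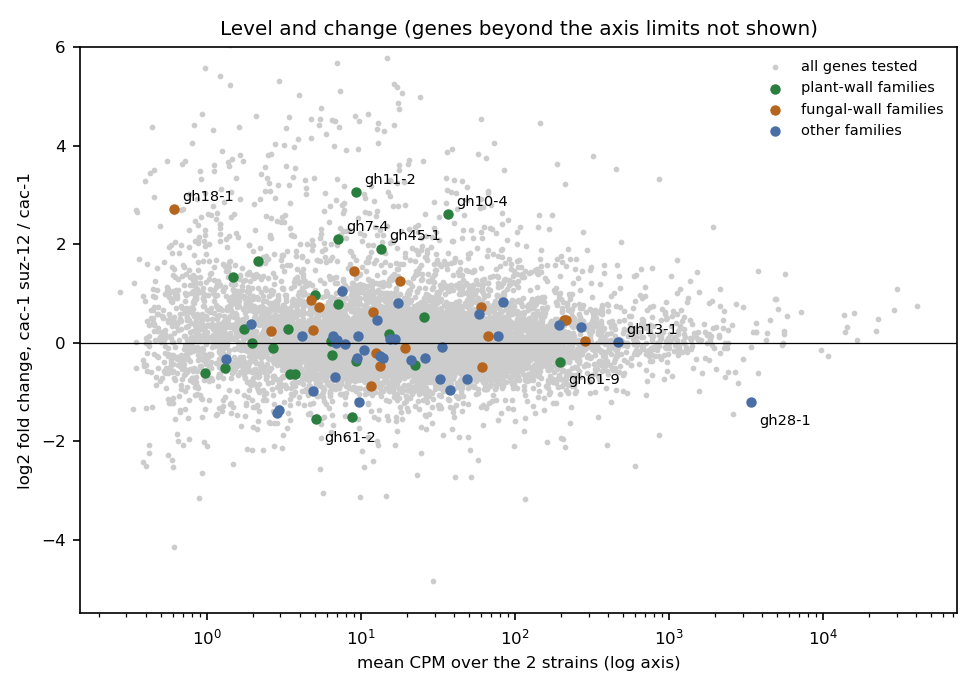
Mean CPM over the strains (log axis) against log2 fold change (double over single knockout) for all genes tested in grey and the members in colour, with genes beyond the vertical limits left out. Most members lie near 0, the labelled plant-wall genes gh11-2, gh10-4, gh7-4 and gh45-1 lie from 1.90 to 3.05, and the abundant gh28-1 lies at -1.21.

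Endoxylanases, which cut the backbone of xylan in plant hemicellulose, belong to families 10 and 11. Of their 6 genes, 4 were higher in the double knockout and 0 lower, beside 16.1% and 11.9% of all genes tested. The gene gh11-2 (NCU07225, linkage group V, 6198992 to 6199953, minus strand) stood at 1.41, 1.88 and 2.50 CPM in single-knockout replicates 1 to 3 and at 19.9, 12.8 and 17.3 CPM in the double knockout. Every double-knockout library exceeded every single-knockout library by several times, and this was the largest rise among the members tested. Its fitted change was 8.29-fold, or 3.05 on the log2 scale (SE 0.257, edgeR adjusted p = 1.52e-07).

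The family 10 gene gh10-4 (NCU07130, linkage group VI, 47075 to 48564, minus strand) had 10.5, 8.60 and 12.1 CPM in the single and 50.6, 66.2 and 72.7 CPM in the double knockout. It was the most abundant of the xylanase genes per kb in the double knockout and rose 6.07-fold (log2 2.60, SE 0.190, edgeR adjusted p = 2.58e-08). The gene gh10-2 (NCU08189, linkage group III, 4598536 to 4599913), which encodes a major secreted xylanase of cultures grown on xylan, had 10, 24 and 24 counts in the single and 70, 96 and 56 in the double knockout. That is 1.05 ± 0.169 CPM against 3.24 ± 0.118 CPM (SD, n = 3 each), so it rose while staying among the weakly expressed genes (log2 fold change 1.66, SE 0.336, edgeR adjusted p = 0.00140). The smallest rise belonged to gh10-3 (NCU04997, linkage group VI, 4144785 to 4146212), at 24, 18.5 and 21.0 CPM against 33.2, 30.4 and 26.7 CPM (log2 fold change 0.52, SE 0.166, edgeR adjusted p = 0.0271). The call of gh10-3 was lost with library totals (adjusted p = 0.204), with upper-quartile factors (0.0511) and without single-knockout replicate 2 (0.105) or 3 (0.0571) and without double-knockout replicate 1 (0.128, edgeR in each case).

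The remaining xylanase genes did not pass the test. The gene gh10-1 (NCU05924) stood at 1.53 ± 0.342 and 1.92 ± 0.731 CPM, and gh11-1 (NCU02855) at 1.95 ± 0.665 and 1.99 ± 0.667 CPM (SD, n = 3 each). Summed over the 6 genes, the level in CPM per kb was 32.3, 27.8 and 35.0 in the single and 93.2, 94.5 and 104 in the double knockout, a ratio of 3.06 of the means, or 2.68 on library totals. The share of gh10-4 in that sum went from a mean of 24.5% to 48.5%.

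Cellulose is cut inside its chains by endoglucanases and from chain ends by cellobiohydrolases, and the genes of these families moved in both directions. In family 45, a small endoglucanase family, the only member gh45-1 (NCU05121, linkage group VI, 3681667 to 3682601, minus strand) had 4.57, 4.09 and 8.34 CPM in the single and 23.7, 21.5 and 19.1 CPM in the double knockout. The strains did not overlap, although single-knockout replicate 3 lay above the other two libraries of its strain. The rise was 3.74-fold (log2 1.90, SE 0.246, edgeR adjusted p = 2.65e-05). The family 5 endoglucanase gene gh5-1 (NCU00762, linkage group I, 7271867 to 7273108, minus strand) went the other way, with 13.5, 13.2 and 12.2 CPM in the single and 3.19, 5.27 and 5.10 CPM in the double knockout. All single-knockout libraries were high and close together, and the gene fell by 1.51 on the log2 scale (SE 0.227, edgeR adjusted p = 8.61e-05).

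Family 7 holds cellobiohydrolases and endoglucanases. Of its 5 genes, gh7-4 (NCU05104, linkage group VI, 3732709 to 3734273) rose from 1.87, 2.84 and 3.06 CPM to 10.3, 10.7 and 13.6 CPM, 4.28-fold (log2 2.10, SE 0.243, edgeR adjusted p = 5.71e-06). The gene gh7-1 (NCU05057) rose from 5.23 ± 0.526 to 8.94 ± 1.35 CPM (SD, n = 3 each, log2 fold change 0.78, edgeR adjusted p = 0.0134), a call lost on library totals (0.0703) and without double-knockout replicate 2 (0.0610). For cbh-1 (NCU07340, linkage group IV, 4311321 to 4313005), which encodes a main secreted cellobiohydrolase on cellulose, the libraries held 4.92, 3.45 and 5.24 CPM against 2.84, 2.50 and 3.38 CPM. All double-knockout libraries were lower, but the difference of -0.64 on the log2 scale (SE 0.281) did not pass the test (edgeR adjusted p = 0.102). On library totals it did (0.030).

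The gene gh7-2 (NCU04854) stood at 6.33 ± 0.828 and 6.5 ± 1.69 CPM (SD, n = 3 each) and was not called. Too few counts fell on gh7-3 (NCU04027) for a test, with 0, 8 and 6 in the single and 2 in each double-knockout library. Family 6, also of cellobiohydrolases and endoglucanases, had no called gene among 3. Its cellobiohydrolase gene gh6-2 (NCU09680) stood at 10.4 ± 0.217 and 8.11 ± 0.472 CPM, gh6-3 (NCU07190) at 14.3 ± 1.61 and 16 ± 1.62 CPM, and gh6-1 (NCU03996) at 1.16 ± 0.688 and 0.788 ± 0.272 CPM (SD, n = 3 each). The edgeR adjusted p-values were 0.166, 0.510 and 0.376, and for gh6-2 every double-knockout library was lower. On library totals gh6-2 was called lower (0.0450).

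Family 61 was defined as glycoside hydrolases, but its proteins are now known as copper-dependent polysaccharide monooxygenases, which break cellulose chains by oxidation. Of 11 genes, 10 were tested, 2 were higher, 1 was lower and 7 were not called. Over all genes tested, 16.1% were higher and 11.9% lower. The gene gh61-2 (NCU07760, linkage group V, 394609 to 395718) had 7.61, 7.89 and 7.51 CPM in the single and 2.7, 2.95 and 2.13 CPM in the double knockout, with little spread in either strain, and fell by 1.55 on the log2 scale (SE 0.242, edgeR adjusted p = 1.35e-04). The gene gh61-11 (NCU07520) had 4, 28 and 20 counts in the single and 48, 80 and 26 in the double knockout, a log2 change of 1.34 (SE 0.410, edgeR adjusted p = 0.0222). Its call was lost without single-knockout replicate 1 (0.0617), double-knockout replicate 1 (0.0666) or double-knockout replicate 2 (0.0957). The gene gh61-5 (NCU08760) rose from 3.40 ± 0.451 to 6.61 ± 1.18 CPM (SD, n = 3 each, log2 fold change 0.97, edgeR adjusted p = 0.00819), which did not hold without double-knockout replicate 1 (0.0580).

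By level, family 61 was led by gh61-9 (NCU05969, linkage group VI, 3273426 to 3274451). This gene made up 56.9% to 62.2% of the summed level per kb of all plant-wall members in the single and 38.0% to 45% in the double knockout. It had 205, 232 and 227 CPM in the single and 176, 189 and 143 CPM in the double knockout. The strains were separated, but the difference of -0.39 on the log2 scale (SE 0.157) was not called (edgeR adjusted p = 0.0755). For gh61-6 (NCU03328), second of the class by level, the difference was -0.46 (SE 0.170, edgeR adjusted p = 0.0544). Under other settings both passed the threshold, gh61-9 in 5 and gh61-6 in 6 of 14. The gene gh61-4 (NCU01050) was not tested, with 0, 14 and 32 counts in the single and 6, 6 and 0 in the double knockout.

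In all, 9 plant-wall members were higher and 2 lower of 25 tested, or 36.0% and 8.0%, beside 16.1% and 11.9% of all genes. Of the 25 tested, the strains were fully separated for 9 in the higher and 7 in the lower direction, beside 22.4% and 19.8% of all genes tested. On library totals the split was 7 higher and 7 lower, where 11.3% and 20.3% of all genes were called, and with upper-quartile factors it was 8 and 4, where 14.2% and 15.4% were. The median log2 fold change of 0.034 lay near that of all genes, and its sign turned on library totals (-0.15), with upper-quartile factors (-0.038), with no filter (-0.012) and without single-knockout replicate 1 (-0.058) and without double-knockout replicate 2 (-0.038) or 3 (-0.031). The summed level in CPM per kb was 367 ± 20.3 in the single and 386 ± 21.4 in the double knockout (SD, n = 3 each). Without gh61-9 it was 151 ± 15.2 and 222 ± 7.58, a ratio of 1.47, or 1.28 on library totals.

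**Figure D3:**
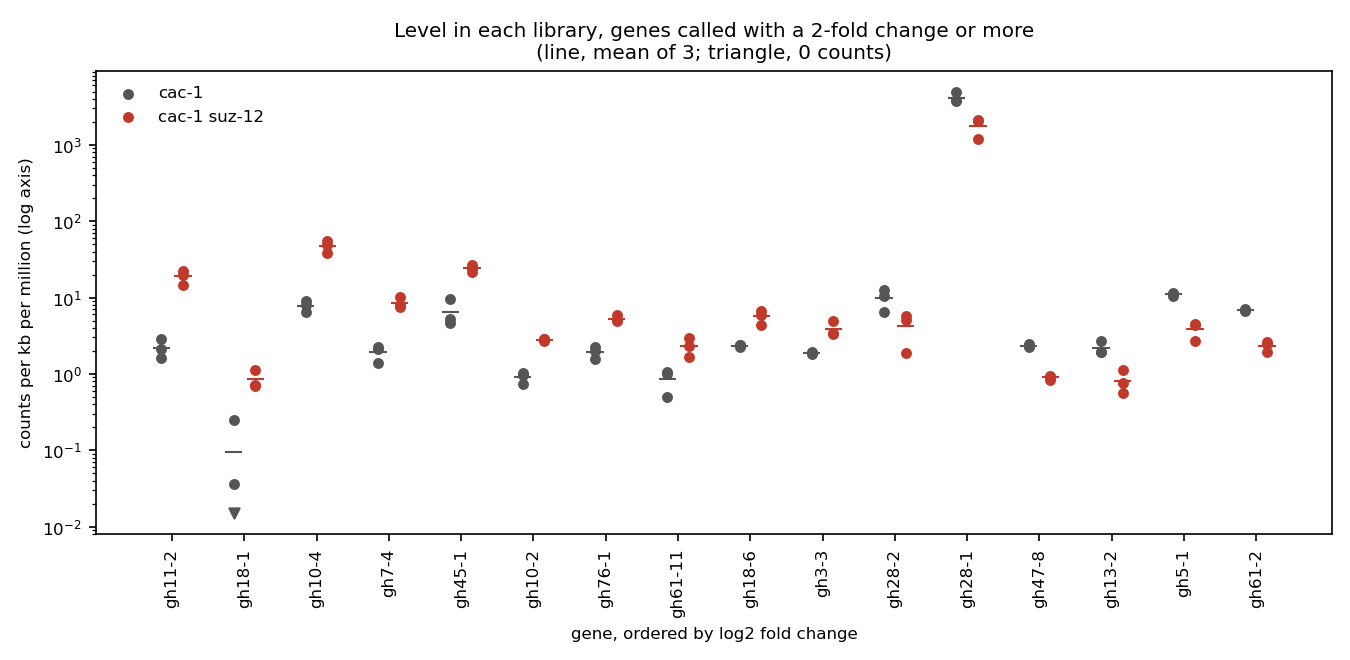
Level in each library (CPM per kb, log axis) of the 16 members called at 2-fold or beyond, ordered by fold change, with lines at the mean of 3 libraries and a triangle for a library with 0 counts. Genes run from gh11-2 on the left (2.19 against 18.9 on average) to gh61-2 on the right (6.91 against 2.34). The strains are fully separated for all 16, but these genes were selected by their change in the same libraries. Their separation is therefore no further evidence, and no share of all genes selected this way is given beside it. The chitinase gene gh18-1 is among them, although it passed the filter only through the double-knockout libraries.

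Fungal-wall families act on the hyphal wall. Without gh18-1, 6 of 17 genes were higher (35.3%) and 1 lower (5.88%), beside 16.1% and 11.9% of all genes, with a median log2 fold change of 0.24. With gh18-1 counted, 7 of 18 were higher. On that count, library totals gave 4 higher and 3 lower, where 11.3% and 20.3% of all genes were called. Upper-quartile factors gave 6 and 3 (14.2% and 15.4% of all genes) and DESeq2 size factors 7 and 3 (15.9% and 12.4%). Family 18 comprises chitinases, which cut the chitin of the wall and of septa, and 3 of its genes rose among the 8 other than gh18-1. The gene gh18-6 (NCU05317, linkage group IV, 5346467 to 5350976) went from 9.96, 10.7 and 10.8 CPM to 26, 19.6 and 29.9 CPM (log2 fold change 1.25, SE 0.187, edgeR adjusted p = 8.51e-05). The more abundant gh18-7 (NCU06020) went from 48.5, 43.2 and 44.7 CPM to 78.6, 69.4 and 76.7 CPM (log2 fold change 0.72, SE 0.144, edgeR adjusted p = 0.00122). Both were higher in every double-knockout library.

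The gene gh18-1 (NCU04500, linkage group IV, 3163243 to 3164692, minus strand) was barely detected in the single knockout. It had 0, 9 and 1 counts there against 33, 27 and 15 in the double knockout. Since it passed the filter only through the strain where it is high, no test value is printed and no support is drawn from it. The gene remains among the called genes in the figures and in counts not given without it. Single-knockout replicate 2 holds most of the counts of that strain. A smaller rise was called for gh18-4 (NCU04883), from 9.49 ± 1.50 to 14.6 ± 1.63 CPM (SD, n = 3 each, edgeR adjusted p = 0.0236). It was lost on library totals (0.128) and without single-knockout replicate 2 (0.0999), double-knockout replicate 2 (0.0738) or double-knockout replicate 3 (0.0642).

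The most abundant chitinase gene, gh18-5 (NCU04554), had 189, 186 and 151 CPM in the single and 161, 377 and 185 CPM in the double knockout. Double-knockout replicate 2 stood far above the other five libraries, and without it the log2 change was -0.021 in place of 0.46 (SE 0.277, edgeR adjusted p = 0.246). The remaining chitinase genes gh18-2, gh18-3, gh18-8 and gh18-9 had log2 differences from -0.48 to 0.24 and were not called. For gh18-8 every double-knockout library was lower (edgeR adjusted p = 0.0509), and it was called lower in 5 of 14 other settings, with adjusted p-values down to 0.0141.

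Family 76 proteins are related to yeast enzymes that attach mannoproteins to the wall. Of 7 genes, 2 rose and 1 fell, beside 16.1% and 11.9% of all genes tested. The gene gh76-1 (NCU02032, linkage group I, 1619717 to 1622319) had 4.92, 3.91 and 5.65 CPM in the single and 12.2, 12.7 and 14.5 CPM in the double knockout, a rise of 2.73-fold (log2 1.45, SE 0.215, edgeR adjusted p = 7.82e-05). The gene gh76-4 (NCU06319) rose from 4.01 ± 0.747 to 6.67 ± 0.752 CPM, and gh76-5 (NCU09937) fell from 15 ± 4.29 to 8.26 ± 2.09 CPM (SD, n = 3 each, edgeR adjusted p = 0.0345 and 0.0131). The call of gh76-4 was lost in 6 of 14 other settings (adjusted p up to 0.127), which were library totals, upper-quartile factors and the fits leaving out replicate 1 or 2 of either strain. That of gh76-5 was lost without double-knockout replicate 1 (0.0780).

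Beside these, gh76-7 (NCU03770) stood at 71.5 ± 6.74 and 50.5 ± 14.5 CPM with overlap between the strains (SD, n = 3 each, edgeR adjusted p = 0.0535), and it was called lower in 7 of 14 other settings, with adjusted p-values down to 0.00239. The most abundant fungal-wall member, gh76-2 (NCU04262), had 265, 261 and 319 CPM in the single and 266, 238 and 355 CPM in the double knockout, and the strains overlapped (log2 difference 0.021, SE 0.173). Of the β-1,3-glucanases, gh81-1 (NCU07076) rose from 3.28 ± 0.937 to 6.13 ± 1.68 CPM (SD, n = 3 each, edgeR adjusted p = 0.0316). It was not called on library totals (0.0827) or without single-knockout replicate 1 (0.104) or 2 (0.0794) and without double-knockout replicate 3 (0.170). The family 16 gene gh16-1 (NCU01353) stood at 142, 184 and 215 CPM against 264, 248 and 226 CPM. Every double-knockout library was higher, with a log2 difference of 0.45 (SE 0.169) that did not pass the test (edgeR adjusted p = 0.0571) and did in 4 of 14 other settings.

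**Figure D4:**
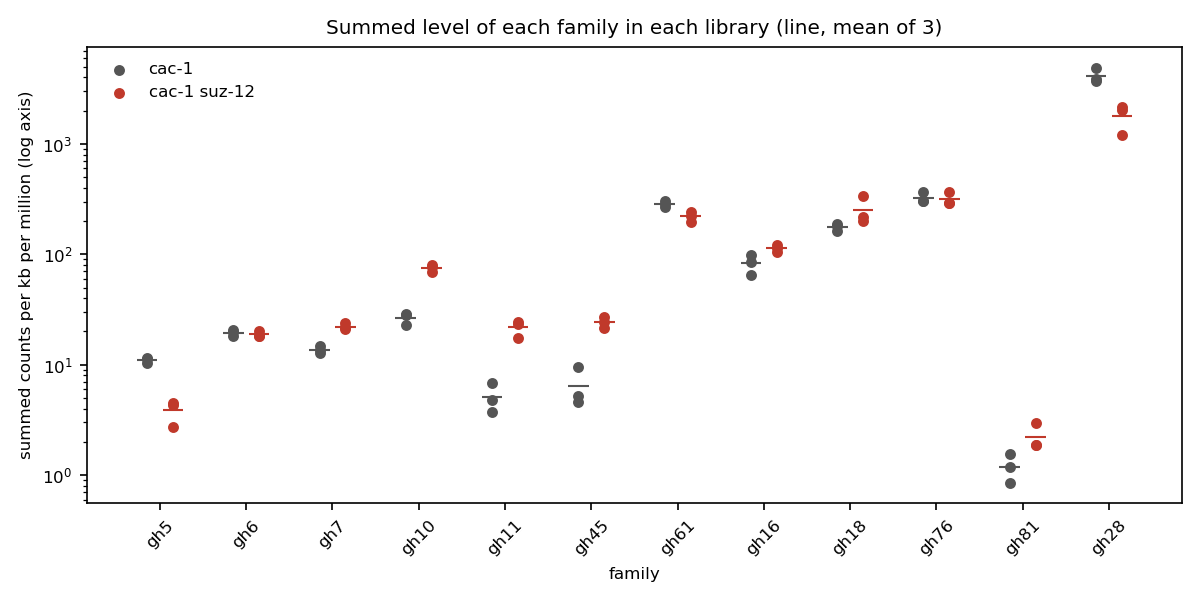
Summed level of each wall-active family and of family gh28 in each library (CPM per kb, log axis), with lines at the mean of 3 libraries of a strain. Families gh10, gh11 and gh45 stand 2.83, 4.28 and 3.78 times higher in the double knockout on average, gh5 and gh28 stand at 0.349 and 0.432 of the single-knockout mean, and gh76 overlaps.

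Outside these classes, the pectin-cutting family 28 held the member with the largest difference in CPM. The gene gh28-1 (linkage group VII, 2726482 to 2727780) had 4249, 4364 and 5562 CPM in the single and 1360, 2450 and 2318 CPM in the double knockout. All libraries of the single knockout were far above those of the double, and the gene fell by 1.21 on the log2 scale (SE 0.215, edgeR adjusted p = 5.52e-04). It made up 71.5% of the summed level per kb of all members in the single and 49.3% in the double knockout, on average. The related gh28-2 (NCU06961) had 14.3, 8.82 and 17.4 CPM against 2.57, 7.95 and 7.0 CPM, a fall of similar fitted size (log2 fold change -1.20, SE 0.377, edgeR adjusted p = 0.0352). Double-knockout replicate 2 came close to single-knockout replicate 2, and the call was lost without single-knockout replicate 1 (0.101) or 3 (0.113) and without double-knockout replicate 1 (0.0509) or 3 (0.0664).

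β-Glucosidases and related enzymes of families 1 and 3 release glucose from cellobiose and other short chains. The family 1 gene gh1-1 (NCU00130), an intracellular β-glucosidase, fell from 50.1, 49.2 and 50.8 CPM to 22.6, 30.3 and 24.4 CPM (log2 fold change -0.95, SE 0.157, edgeR adjusted p = 2.29e-04). Of the 8 genes of family 3, gh3-3 (NCU08755) rose from 4.95 ± 0.215 to 10.2 ± 2.44 CPM and gh3-2 (NCU08054) from 60.1 ± 7.21 to 106 ± 17.9 CPM, while gh3-5 (NCU05577) fell from 40.4 ± 3.34 to 24.3 ± 4.2 CPM (SD, n = 3 each). Their edgeR adjusted p-values were 0.00234, 0.00134 and 0.00323. The extracellular β-glucosidase gene gh3-4 (NCU04952) stood at 9.18 ± 3.05 and 9.89 ± 1.55 CPM and was not called, nor were the 4 other genes of the family.

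Family 13 is the amylase family, with enzymes of starch and glycogen. Its 6 genes split evenly, with 2 higher, 2 lower and 2 not called, where 16.1% of all genes tested were higher and 11.9% lower. The gene gh13-1 (NCU08131), second of all members by level, had 490, 372 and 532 CPM against 436, 449 and 517 CPM, and the strains overlapped (log2 difference 0.0092, SE 0.166). The gene gh13-3 (NCU09486) rose from 12.7 ± 1.43 to 21.8 ± 2.83 CPM and gh13-6 (NCU05873) from 46.9 ± 8.26 to 69.6 ± 13.4 CPM (SD, n = 3 each, edgeR adjusted p = 0.00293 and 0.0229). Falls were found for gh13-2 (NCU09805), from 5.15, 3.70 and 3.61 CPM to 1.42, 1.06 and 2.13 CPM (log2 fold change -1.44, SE 0.336, edgeR adjusted p = 0.00421), and for gh13-5 (NCU07860, log2 fold change -0.70, edgeR adjusted p = 0.0345). The calls of gh13-5 and gh13-6 were lost in 4 and 5 of 14 other settings, with adjusted p-values up to 0.141 and 0.176. Those settings were, for gh13-5, the fits leaving out replicate 1 or 2 of the single or 1 or 3 of the double knockout, and for gh13-6 library totals and the fits leaving out replicate 1 or 3 of the single or 2 or 3 of the double knockout.

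Families 31, 38, 47 and 63 include the glucosidases and mannosidases that trim sugar chains of proteins on the secretory route. Of their 13 genes, 3 were lower and 0 higher, beside 11.9% and 16.1% of all genes tested. The gene gh47-8 (NCU09028) had 4.45, 4.19 and 4.08 CPM in the single and 1.51, 1.64 and 1.72 CPM in the double knockout, with very little spread in either strain (log2 fold change -1.38, SE 0.288, edgeR adjusted p = 0.00178). The gene gh47-3 (NCU01059) fell from 6.46 ± 1.39 to 3.32 ± 0.470 CPM, and gh31-2 (NCU04203) from 61.1 ± 6.94 to 36.6 ± 2.31 CPM (SD, n = 3 each, edgeR adjusted p = 0.00835 and 0.00140). None of the 5 genes of families 2 and 35 was called, and the most abundant, gh35-1 (NCU00642), had 227, 189 and 300 CPM against 261, 225 and 410 CPM.

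In this fungus, regions methylated by the Polycomb complex lie largely near chromosome ends. The right end of each chromosome was taken as the end of its last counted gene, so distances to that end are lower bounds. Of the 80 members, 9 lay within 200 kb of an end and 6 within 100 kb. All 9 were tested, 7 were higher (77.8%), 0 were lower by that test, and 2 were not called. Among all 701 genes tested in these zones 38.1% were higher and 4.42% lower. The 7 were gh10-4, gh10-3, gh61-5, gh3-2, gh3-3, gh13-3 and gh13-6, and the others, gh6-3 and gh31-1, had log2 differences of 0.17 and 0.45, the latter called without single-knockout replicate 3 (edgeR adjusted p = 0.0241). Farther inside lay 71 members, of which 69 were tested, 13 were higher (18.8%, or 12 without gh18-1) and 12 lower (17.4%), against 14.2% and 12.6% of all genes there. The largest rise, gh11-2, lay 236 kb from an end, gh7-4 and gh45-1 lay 428 and 480 kb away, and gh18-1 lay 2786 kb away. All 12 lower members lay farther than 200 kb from an end, as did 1062 of the 1093 lower genes of all kinds.

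**Figure D5:**
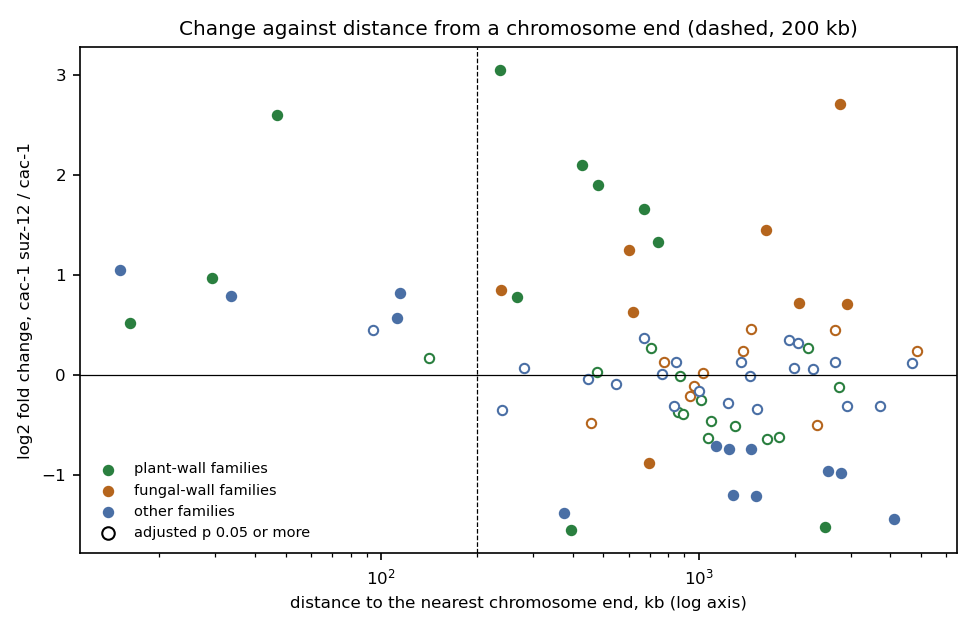
Distance of each member tested from the nearest chromosome end (kb, log axis) against its log2 fold change (double over single knockout), with filled points for called genes and a dashed line at 200 kb. All 9 genes left of the line lie above 0, from 0.17 to 2.60, and the called genes below 0 lie from 377 to 4105 kb from an end. Over all genes tested within 200 kb of an end the median was 0.35, and their share above 0 was not computed.

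The genes directly beside each member that rose or fell at least 2-fold were also read. Of the 10 members higher by this rule, 8 had at least 1 flanking gene called higher (80.0%, or 7 of 9 without gh18-1), against 64.2% of the 774 genes of all kinds that were higher by the same rule. On both sides of gh11-2 the neighbours were higher, NCU07226 at 3.29 and NCU07224 at 1.54 on the log2 scale (edgeR adjusted p = 6.46e-06 and 0.0194). The same was found for gh7-4, between NCU05105 at 1.45 and NCU05102 at 1.16 (edgeR adjusted p = 6.08e-05 and 0.00591), and for gh3-3, between NCU08756 at 3.83 and NCU08753 at 1.86 (edgeR adjusted p = 6.48e-11 and 0.00344). Neighbours of gh76-1 and gh61-11 were not called. Of the 6 members lower by 2-fold or more, gh28-1 and gh5-1 had a lower neighbour, NCU02370 at -0.79 and NCU00763 at -0.97 (edgeR adjusted p = 0.00207 and 0.0105). The matching share over all genes lower by this rule was not computed, so the count has no background beside it. Beside gh5-1 on the other side NCU00761 was higher at 0.83, and beside gh47-8 NCU09029 was higher at 0.68 (edgeR adjusted p = 0.00235 and 0.0211). Members were otherwise scattered over all 7 linkage groups, and 4 pairs lay within 5 gene positions of each other. Of those pairs, gh61-5 and gh3-3 near an end of linkage group III, 11170 bp apart, both rose.

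Regulators of these enzymes were read from a list of 15 names, of which the table gives 7. The gene clr-1 (NCU07705), a zinc-cluster activator needed for cellulase induction, had 7.85, 8.57 and 9.45 CPM in the single and 2.61, 5.86 and 3.62 CPM in the double knockout. It was lower in every double-knockout library and fell by 1.09 on the log2 scale (SE 0.273, edgeR adjusted p = 0.00677). Its partner clr-2 (NCU08042) stood at 2.18 ± 0.909 and 2.21 ± 0.246 CPM, the xylanase activator xlr-1 (NCU06971) at 4.35 ± 1.41 and 5.12 ± 1.27 CPM, and cre-1 (NCU08807), which mediates carbon catabolite repression, at 249 ± 26.9 and 251 ± 24.9 CPM (SD, n = 3 each). None of these 3 was called, nor were vib-1, col-26 or rca-1, whose log2 differences were -0.23, -0.14 and 0.13.

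Among 3 transporter genes that the table names of 12 listed, 2 were lower and 0 higher, beside 11.9% and 16.1% of all genes tested. The cellodextrin transporter gene cdt-1 (NCU00801), whose product takes up the short glucose chains that gh1-1 can cut, had 88.6, 83.1 and 79.4 CPM in the single and 14.1, 22.9 and 18.1 CPM in the double knockout. It fell by 2.18 on the log2 scale (SE 0.179, edgeR adjusted p = 1.12e-07), more than any glycoside hydrolase gene tested. The glucose transporter gene hgt-1 (NCU10021) fell from 20.4 ± 2.55 to 10.5 ± 3.49 CPM (SD, n = 3 each, edgeR adjusted p = 0.00309). A second cellodextrin transporter gene, cdt-2 (NCU08114), was not called.

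Enzymes of the same kinds under other names were read from further lists. Of 5 genes for sucrose, starch and trehalose, the invertase gene inv (NCU04265), which splits the sucrose of this medium, fell by 0.58 on the log2 scale (SE 0.179, edgeR adjusted p = 0.0224), and the glucoamylase gene gla-1 (NCU01517) rose by 0.90 (SE 0.177, edgeR adjusted p = 0.00108). The call of inv was lost without single-knockout replicate 1 (0.0804) and without double-knockout replicate 3 (0.0971). Of 26 names listed for wall synthesis and remodelling, the table gives 11. The 5 chitin synthase genes among these were not called at an adjusted p under 0.05. Of the 11, 2 were higher (18.2%) and 0 lower, beside 16.1% and 11.9% of all genes tested. Those higher were the chitinase gene chit-1 (NCU02184), from 4.4 ± 0.857 to 10.9 ± 2.27 CPM, and the glucanosyltransferase gene gel-4 (NCU07253), from 940 ± 217 to 1663 ± 531 CPM (SD, n = 3 each, edgeR adjusted p = 5.96e-04 and 0.0144). The call of gel-4 was lost without single-knockout replicate 1 (0.0714) or 2 (0.0613) and without double-knockout replicate 3 (0.0715). The cellobiose dehydrogenase gene cdh-1 and the laccase gene lacc were not called. In 4 of 14 other settings lacc was called lower, with adjusted p-values down to 0.0149.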

How the data were processed

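Reads were trimmed with Trim Galore 0.6.10, aligned with STAR 2.7.11 and counted with featureCounts of Subread 2.0.6, per the submitters' processing notes. The deposited table holds the authors' raw counts per gene, 1 column for each alignment file per the file headers, with no normalization. The genome build and the strand setting of the counting are not given in the sources used here, and libraries were directional per the labels' protocols. Counted intervals of all 80 members lay within the RefSeq genes of the same name in the NC12 assembly, which gave locus tags and linkage groups; coordinates are those of the deposited table. Counted lengths were multiples of 3 for 98.8% of genes, so they are taken as coding length. No member overlapped another gene of the table, and reads shared with near-identical copies were not examined. No member sequences were used here. Another 36 count columns of the table carry names found in no label used here, and these were left out.

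The double knockout was compared with the single knockout (3 libraries each) with edgeR 4.0.16 in R 4.3.3, with filterByExpr (9148 genes kept, 609 removed), TMM factors, a robust quasi-likelihood fit and Benjamini-Hochberg adjustment over all genes tested, at 0.05. The standard error is the size of the log2 fold change divided by the square root of F. CPM values use the summed counts of the 9148 genes kept, times TMM factors. The test was tested on simulated data. Among table values between 1 and 20, even numbers made up 80.9%, so a count is not taken as 1 fragment, and 3 counts correspond to 0.103 to 0.351 CPM.

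Members named were those called with a 2-fold change or more, the 3 most abundant of each class, cbh-1 and families 6, 7, 10, 11 and 45, those not tested, the regulators and the called genes of the other lists; other members were named after their values were seen. Members, lists and classes were chosen with earlier results of these data known. Under the names listed, 46 list genes were not found and are not analysed here.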

Additional observations from a re-analysis of the deposited data

How the results depend on the processing

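Other settings were DESeq2 size factors, library totals or upper-quartile factors in place of TMM, no filter, at least 10 counts in every library, DESeq2 1.42.0, a replicate block, leaving out each library, and halved counts, which were chosen after seeing the data. Library totals moved the median of all genes to -0.20 on the log2 scale, so their lower calls count changes around a shifted centre. Counts of members depended most on scaling, in the lower direction. They include gh18-1 wherever it was tested. Members lower were 12 in the main test and 21 on library totals. Plant-wall members lower were 2, and 7 on library totals, 4 with upper-quartile factors, 4 with DESeq2 and 4 with the replicate block. Fungal-wall members lower were 1, and 3 with DESeq2 size factors, library totals, upper-quartile factors, DESeq2 and the replicate block. Fungal-wall members higher were 7, and 4 on library totals. Over all genes 1861 were lower on library totals, against 1093.

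Leaving out each library gave 15 to 21 members higher and 9 to 15 lower. Plant-wall members were 6 to 9 and 2 to 3, fungal-wall members 4 to 8 and 0 to 3, and all genes 1129 to 1535 and 650 to 1139. These fits hold fewer samples; for the scalings the cause was not tested.

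Named genes had 1045 values under other settings. In 922 the sign and the call were kept, in 45 a call was lost, in 34 one was gained, and in 44 the sign turned, each for a gene without a call. On library totals they were -0.19 for gh76-2, gh13-1 and cre-1, -0.022 for gh6-3, -0.15 for gh7-2, -0.077 for rca-1, -0.065 for gh3-4 and -0.048 for cdt-2. With upper-quartile factors they were -0.051 for gh76-2, -0.063 for gh13-1, -0.038 for gh7-2 and -0.057 for cre-1. For gh13-1 the value was -0.0017 with DESeq2 size factors and -0.0016 with DESeq2. Requiring 10 counts in every library put gh11-1 at 0.00075 and cdh-1 at 0.0060, and the replicate block put gh11-1 at 0.051, clr-2 at 0.038 and cdh-1 at 0.016. Without 1 library, values ran from -0.16 to 0.14 for gh76-2, -0.16 to 0.21 for gh7-2, -0.067 to 0.077 for cre-1, -0.13 to 0.11 for gh13-1, -0.86 to 0.039 for gh6-1, -0.26 to 0.059 for col-26, -0.097 to 0.35 for rca-1, -0.23 to 0.28 for gh11-1, -0.24 to 0.28 for clr-2, -0.097 to 0.39 for gh18-3, -0.14 to 0.31 for gh3-4, -0.16 to 0.099 for cdh-1 and -0.021 to 0.68 for gh18-5. Same-numbered libraries deviated together at r = -0.015, 0.097 and 0.17 across genes, so the numbers were not taken to pair them. With the replicate block the call of gh28-2 was lost (edgeR adjusted p = 0.0896), gh18-8, gh76-7, gh61-6 and gh61-9 were called lower, gh16-1 was called higher, and the other members tested kept their calls; lacc also became called lower. The further fungal-wall members lower under the 5 settings above were gh18-8 and gh76-7 in each. Counts were too few to test gh7-3 and gh61-4.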
